A study of Homo sapiens with 18 samples.

Results

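The NRF2 glutathione and thioredoxin genes examined here are NFE2L2, KEAP1, GCLC, GCLM, TXN, TXNRD1, SRXN1, SLC7A11 and HMOX1, 9 of the 61487 genes counted in each of 18 libraries of NCI-H1975. They were chosen by name as members of the pathway, with earlier results of these data known, and found by their Ensembl identifiers. NCI-H1975 is an established lung adenocarcinoma cell line. The groups were sgDAMP cells (knockout of the peptide DAMP, which the series title assigns to the lncRNA gene DSP-AS1), Scramble cells (described by that word alone) and sgControl cells (the CRISPR control), each with 3 mRNA and 3 ribosome footprint libraries. Cells for footprints were harvested after 100 micrograms per ml cycloheximide, which halts ribosomes on mRNA. Whether sgDAMP cells are a clone or a pool, and whether replicates are separate cultures, is not given in the sources used here, so p-values measure the spread between these libraries, which may be technical.

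NRF2, the protein of NFE2L2, is a transcription factor that KEAP1 holds down by presenting it to a CUL3 ubiquitin ligase. Oxidants and electrophiles modify cysteines of KEAP1, NRF2 accumulates, and with small MAF proteins it binds the antioxidant response element of target genes. Among those targets are the cystine transporter SLC7A11, both subunits of the enzyme that starts glutathione synthesis, the thioredoxin system and haem oxygenase, and lung adenocarcinomas can carry mutations that free NRF2 from KEAP1.

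The core of the antioxidant response element, TGACNNNGC, was looked for on both strands in RefSeq promoter windows (GRCh38.p14, 250 bases before to 50 after a gene start). Windows were found for 7 of the 9 genes, 10 windows in all, and not for SLC7A11 and HMOX1. GCLM, KEAP1 and TXNRD1 had at least 1 match, in 4 of the 10 windows, against 13.3% of all 35116 windows. The stretches around all matches that end before a gene start are shown. TXNRD1 has 1 further match, which crosses its first start. Whether a match goes with a change in mRNA was not tested. Capitals mark the core, which reads GCNNNGTCA where it lies on the other strand.
GCLM, chr1:93909431-93909489, minus strand: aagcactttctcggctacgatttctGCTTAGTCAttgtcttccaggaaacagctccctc
KEAP1, second start, chr19:10502772-10502850, minus strand: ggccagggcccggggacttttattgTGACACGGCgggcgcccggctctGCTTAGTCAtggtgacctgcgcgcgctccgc
TXNRD1, first start, chr12:104215655-104215713, plus strand: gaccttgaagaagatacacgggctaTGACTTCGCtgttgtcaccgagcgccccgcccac
TXNRD1, second start, chr12:104286905-104286963, plus strand: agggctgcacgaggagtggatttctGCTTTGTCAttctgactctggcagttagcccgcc
GCLM and KEAP1 share a core that, read on the strand opposite to the gene, has the same 9 letters, TGACTAAGC. A match describes the letters only and does not show that NRF2 binds there.

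Libraries held 17171514 to 17455799 counts on genes in sgDAMP mRNA, 10859527 to 12424884 in Scramble mRNA and 17098397 to 17464782 in sgControl mRNA. Footprint libraries held 6207783 to 6864945 in sgDAMP, 1035159 to 1302852 in Scramble and 6845899 to 7840852 in sgControl. Protein-coding genes took 20.16%, 19.51% and 6.37% of these counts in replicates 1, 2 and 3 of the Scramble footprints, against 76.31% to 79.31% in the other footprint libraries. The 3 footprint libraries of sgDAMP differed by less than the sampling noise (chi-square divided by its degrees of freedom averaged 0.91), as did those of sgControl (0.909), so each trio was summed and counted as 1 sample. That average was 64.7 in sgDAMP mRNA, 4.11 in Scramble mRNA, 38.3 in sgControl mRNA and 16.5 in Scramble footprints. In Scramble footprints 2784 of 3292 genes differed beyond sampling noise between libraries, and 95.65% to 95.82% of reads fell on no gene. DSP-AS1, the gene of the peptide, had 2 footprints in sgDAMP against 567 in sgControl, and its mRNA averaged 21.3 ± 2.24 CPM in sgDAMP and 22.8 ± 2.17 CPM in sgControl (SD, n = 3 each). Of the markers of the line, KRT7, KRT8 and KRT18 were abundant in every mRNA library (1680 CPM or more), while EPCAM, KRT19, NKX2-1, NAPSA, SFTPB and SFTPC stayed at or under 1.38 CPM. Between these, EGFR ran from 46.3 to 196 CPM, MET from 22.5 to 227 and CDH1 from 26.1 to 124. Summed markers of fibroblasts reached at most 11.5 CPM, endothelial markers 1.74 CPM and leukocyte markers 1.11 CPM, with PTPRC and CD3E at 0. The line's own markers summed to 13900 to 19700 CPM in sgDAMP mRNA, 7640 to 9180 in Scramble and 19000 to 25000 in sgControl. These sums rest mostly on KRT7, KRT8 and KRT18 and do not show how the other markers differ between groups.

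mRNA of the 9 genes was first compared between sgDAMP and sgControl, to see whether loss of DAMP goes with other transcript amounts. NFE2L2, GCLC, GCLM, TXNRD1 and HMOX1 had mRNA ratios between 1.56 and 1.85, but 0 of the 9 genes passed the test. Levels below are CPM (counts relative to library size) scaled over the 9 mRNA libraries by TMM (trimmed mean of M values, which sets the zero point from genes that differ least). Tests are edgeR's quasi-likelihood F test with Benjamini-Hochberg adjustment over the 14032 genes tested, of which 0% were called higher and 0% lower at an adjusted p of 0.05, with 741 at an unadjusted p of 0.05, while DESeq2 called 21, none of them among the 9.

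NFE2L2 (ENSG00000116044, chromosome 2, 177230303 to 177264727, GRCh38.p14) stood at 11.4, 10.7 and 10.8 CPM in sgDAMP, against 5.24, 7.51 and 8.46 CPM in sgControl. Every sgDAMP library was above every sgControl library, on 153 to 188 counts in sgDAMP against 67 to 128 in sgControl. The log2 change was 0.65 (SE 0.32, adjusted p = 0.862). KEAP1 (ENSG00000079999, chromosome 19, 10486125 to 10503356), the inhibitor, had 182, 120 and 189 CPM in sgDAMP, against 205, 179 and 127 CPM in sgControl. The groups overlapped and the log2 change was -0.03 (SE 0.28, adjusted p = 0.982).

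Both subunits of glutamate-cysteine ligase, the rate-limiting enzyme of glutathione synthesis, showed groups that did not overlap. The modifier subunit GCLM (ENSG00000023909, chromosome 1, 93885199 to 93909430) had 78.1, 98.5 and 79.8 CPM in sgDAMP, against 35.4, 39.1 and 65.7 CPM in sgControl. Replicate 3 of sgControl lay closest to the sgDAMP libraries, and the log2 change was 0.89 (SE 0.30, adjusted p = 0.862). It was 1.21 without that library. The catalytic subunit GCLC (ENSG00000001084, chromosome 6, 53497341 to 53545101) had 20.8, 24.4 and 24.7 CPM in sgDAMP, against 12.8, 13.2 and 19.4 CPM in sgControl, again with replicate 3 of sgControl nearest to sgDAMP. Its log2 change was 0.64 (SE 0.30, adjusted p = 0.862). SLC7A11 (ENSG00000151012, chromosome 4, 138164097 to 138242349) imports the cystine for that synthesis. It had 31.6, 31.8 and 25.2 CPM in sgDAMP, against 17.1, 27.9 and 34.4 CPM in sgControl, overlapping groups with a log2 change of 0.17 (SE 0.31, adjusted p = 0.908).

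TXNRD1 (ENSG00000198431, chromosome 12, 104215779 to 104350307) encodes cytosolic thioredoxin reductase, a selenoprotein that uses NADPH to reduce thioredoxin. Its mRNA stood at 520, 752 and 441 CPM in sgDAMP, against 282, 281 and 461 CPM in sgControl. Replicate 3 of each group overlapped, and the log2 change was 0.76 (SE 0.32, adjusted p = 0.862). Thioredoxin itself, TXN (ENSG00000136810, chromosome 9, 110243810 to 110256507), had 471, 1742 and 1342 CPM in sgDAMP, against 524, 828 and 1329 CPM in sgControl. Each group spread over more than the difference between them, and the log2 change was 0.43 (SE 0.45, adjusted p = 0.868), which became 0.03 without replicate 2 of sgDAMP. SRXN1 (ENSG00000271303, chromosome 20, 646615 to 653200), sulfiredoxin, repairs overoxidised peroxiredoxins. Its levels were 7.85, 10.1 and 8.08 CPM in sgDAMP, against 12.5, 6.61 and 6.28 CPM in sgControl, with a log2 change of 0.07 (SE 0.35, adjusted p = 0.968).

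HMOX1 (ENSG00000100292, chromosome 22, 35381096 to 35394207), the inducible haem oxygenase, had 2744, 1531 and 2735 CPM in sgDAMP, against 1711, 1532 and 1083 CPM in sgControl. Replicates 1 and 3 of sgDAMP were above every sgControl library, while replicate 2 was level with replicate 2 of sgControl. The log2 change was 0.72 (SE 0.31, adjusted p = 0.862), and 0.95 without replicate 2 of sgDAMP.

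**Figure D1:**
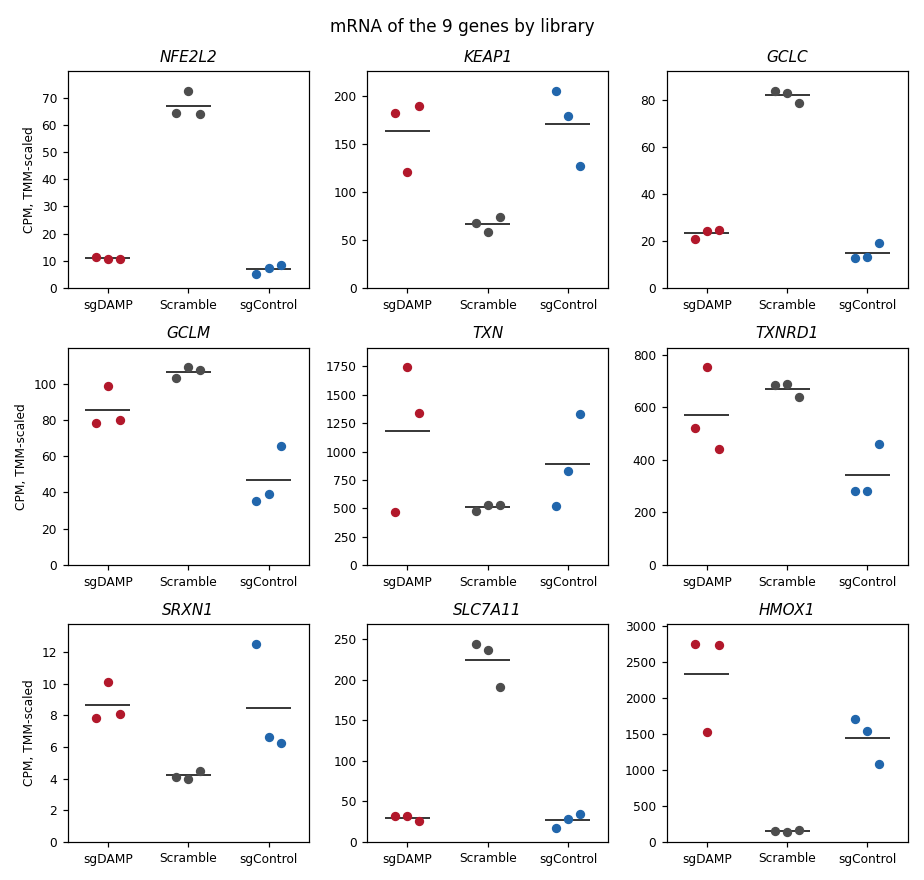
mRNA level (TMM-scaled CPM, linear axis from 0) of each of the 9 genes in the 3 libraries of sgDAMP, Scramble and sgControl cells; points are libraries in replicate order and lines are group means. NFE2L2, GCLC and GCLM have every sgDAMP point above every sgControl point, and HMOX1 is far lower in Scramble (mean 154 CPM) than in sgDAMP (2340 CPM) or sgControl (1440 CPM).

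The groups did not overlap, with sgDAMP higher, for 3 of the 9 genes (NFE2L2, GCLC and GCLM), against 5.91% of all genes tested, and lower for 0 of 9, against 5.54%. An unadjusted p under 0.05 with a higher value in sgDAMP was reached by GCLC, GCLM, TXNRD1 and HMOX1, against 2.6% of all genes, and with a lower value by 0 of 9, against 2.68%. These 4 became 1 (HMOX1) without replicate 1 of sgControl, 0 without replicate 2 of sgControl and 2 without replicate 2 or replicate 3 of sgDAMP. The median log2 change of the 9 was 0.64, beside 0.03 over all genes tested. Because the 9 genes were chosen with earlier results of these data known, these shares and medians describe them and do not test them as a set. The first principal component of these 6 mRNA libraries, with 61.3% of the variance, had overlapping scores in the groups: -12.9, 57.1 and 2.01 in sgDAMP and -51.5, -20.7 and 26 in sgControl. Replicate 2 of sgDAMP and replicate 3 of sgControl scored highest within their groups. In both, GCLM, TXN and TXNRD1 had the highest level of their group and KEAP1 and HMOX1 the lowest. Its part in the results was not tested.

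In footprints, HMOX1 and SRXN1 were at least 1.5-fold lower in sgDAMP and TXNRD1 and GCLM were lower by less, though with total counts the interval of GCLM includes no change. Footprint counts reflect both the amount of an mRNA and how many ribosomes sit on it. With 1 sample per condition there is no test: ratios of summed counts are given after TMM scaling, with exact Clopper-Pearson 95% intervals that cover counting error only. Past the 1.5-fold mark in sgDAMP were 2 of the 9 genes on the lower side, against 15.7% of 16131 genes, and 0 on the higher side, against 19%. Total-count scaling moves the share of higher genes among those past the mark from 54.8% to 71.8%, and the median gene by 0.23 (log2). An edgeR fit that treats the 3 footprint libraries of each group as replicates called 2 of the 9 higher (TXN and SLC7A11), where 27.7% of genes were called higher, and 4 lower (GCLM, TXNRD1, SRXN1 and HMOX1), where 28% were called lower, but it compares the reads of these libraries and not the conditions.

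HMOX1 had 3679, 4294 and 4247 footprints in sgDAMP, against 7046, 7950 and 8045 in sgControl. The ratio was 0.512 (0.5 to 0.523), while its mRNA ratio was 1.65. With other scalings, filters and fits the footprint log2 change of HMOX1, -0.967 in the main setting, ran from -0.975 to -0.739. TXNRD1 had 16299, 17576 and 17057 footprints in sgDAMP, against 21450, 25060 and 24833 in sgControl, a ratio of 0.689 (0.681 to 0.697) beside an mRNA ratio of 1.7. Its footprint log2 change, -0.538 in the main setting, ran from -0.546 to -0.31 with those alternatives. The counting intervals of both genes do not cover this dependence on scaling. TXNRD1 is the member whose sgDAMP footprint libraries differ beyond sampling noise (chi-square over all genes, adjusted p = 0.0208), and its interval is therefore too narrow. Both genes thus had a footprint ratio below 1 beside an mRNA ratio above 1 that did not pass its test.

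GCLM had 265, 291 and 280 footprints in sgDAMP, against 320, 339 and 358 in sgControl, a ratio of 0.793 (0.723 to 0.87), and with total counts a log2 change of -0.11 whose interval (-0.24 to 0.026) includes 0. GCLC, its partner subunit, had 531 summed footprints in sgDAMP and 518 in sgControl, a ratio of 0.989 (0.874 to 1.12), so no difference was detectable at this depth with TMM scaling, while with total counts the log2 change was 0.21 (interval 0.034 to 0.39). SRXN1 had 33, 35 and 38 footprints in sgDAMP, against 51, 56 and 50 in sgControl. Its ratio of 0.651 (0.504 to 0.839) no longer reached 1.5-fold without replicate 2 of sgDAMP, without replicate 1 of sgControl or with total-count scaling.

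The remaining 4 genes had ratios from 0.869 to 1.15. NFE2L2 had 371 footprints in sgDAMP and 412 in sgControl (ratio 0.869, interval 0.753 to 1), and its log2 change of -0.20 turned to 0.02 with total counts. KEAP1 had 318 in sgDAMP and 266 in sgControl (1.15, 0.977 to 1.36), and a log2 change of 0.43 with total counts (interval 0.19 to 0.67). SLC7A11 had 1337 in sgDAMP and 1155 in sgControl (1.12, 1.03 to 1.21), and TXN had 8294 in sgDAMP and 7715 in sgControl (1.04, 1.01 to 1.07). With other scalings, filters and fits the log2 change ran from 0.151 to 0.387 for SLC7A11 and from 0.0446 to 0.28 for TXN. The median log2 change of the 9 genes was -0.20, beside 0.0079 over all genes.

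**Figure D2:**
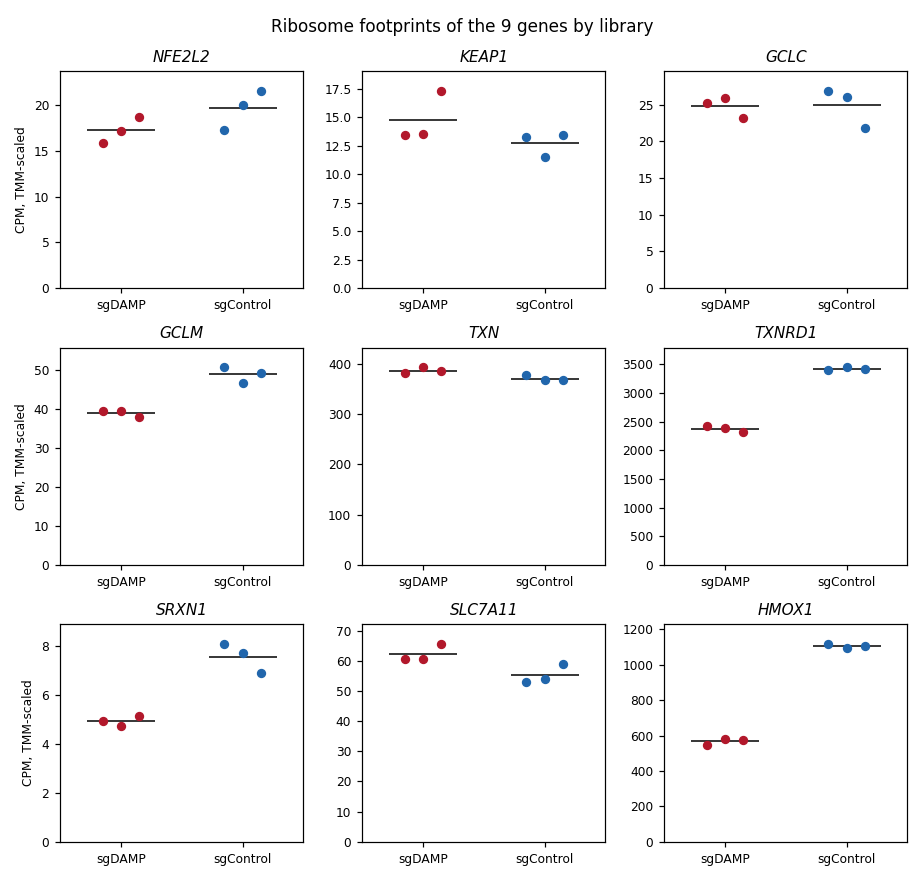
Footprint level (TMM-scaled CPM, linear axis from 0) of each of the 9 genes in the 3 libraries of sgDAMP and of sgControl cells; points are libraries in replicate order and lines are group means, and the libraries of a group count as 1 sample. HMOX1 lies at 549 to 582 CPM in sgDAMP and 1090 to 1120 CPM in sgControl, and TXNRD1 at 2310 to 2430 CPM in sgDAMP and 3400 to 3450 CPM in sgControl.

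Footprints relative to mRNA were tested as the interaction of assay and condition, which separates occupancy from the amount of transcript. For 7 of the 9 genes the estimate was below 0, with HMOX1 at -1.67 (SE 0.65, adjusted p = 0.779), TXNRD1 at -1.28 (SE 0.65, adjusted p = 0.97) and GCLM at -1.21 (SE 0.64, adjusted p = 0.994), and 0 of the 9 passed edgeR's quasi-likelihood test. NFE2L2 had -0.84 (SE 0.64), SRXN1 -0.66 (SE 0.72), GCLC -0.64 (SE 0.62) and TXN -0.36 (SE 0.84), each with an adjusted p of 1. SLC7A11 stood at 0.00073 (SE 0.67) and KEAP1 at 0.26 (SE 0.63), also with an adjusted p of 1. The median of the 9 was -0.66, beside 0.0019 over 19357 genes, of which 0.227% were called lower and 0.031% higher. HMOX1 alone among the 9 had an unadjusted p under 0.05 (0.0194), on the lower side, where 2.11% of all genes did, against 3.36% on the higher side.

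Each footprint sum enters that fit as 1 sample and is assumed to vary as the mRNA libraries do. TXNRD1 and GCLM were not past an unadjusted p of 0.05 (0.0625 and 0.0748). When all 12 libraries count separately, edgeR calls HMOX1 lower (log2 change -1.67, adjusted p = 0.0151, range over its alternatives 0.0129 to 1). That fit calls 1.13% of genes lower. With replicate numbers as a block, TXNRD1 is called lower too (-1.29, adjusted p = 0.0477, range 0.0477 to 1). The block fit calls 123 of 16766 genes lower. Both fits treat the footprint libraries of a group as replicates, although on average over genes these differ by less than the sampling noise. For footprints, their p-values therefore rest on the reads of these libraries and not on the conditions. These calls are not counted as a difference between the conditions.

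**Figure D3:**
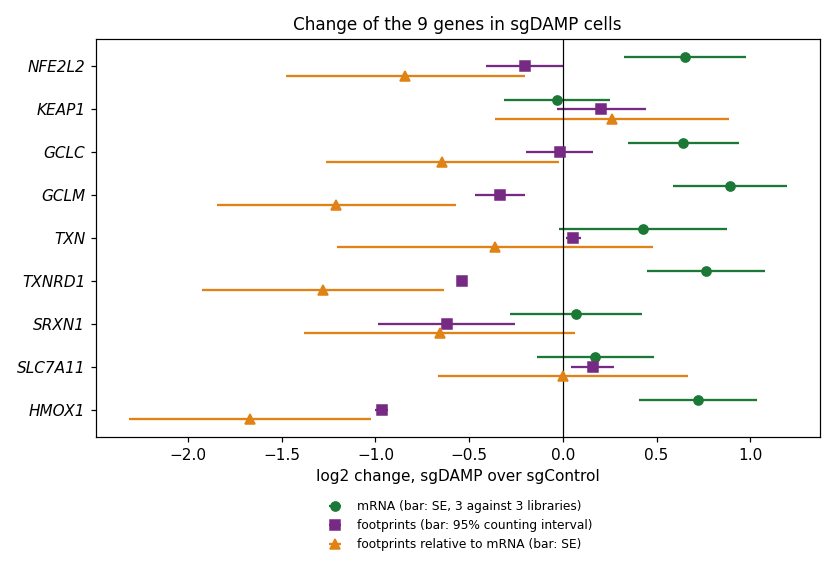
Log2 change in sgDAMP over sgControl for the 9 genes in mRNA (circles, bars are SE over 3 against 3 libraries), footprints (squares, bars are 95% counting intervals of summed counts) and footprints relative to mRNA (triangles, bars are SE). HMOX1, TXNRD1 and GCLM have their mRNA points right of 0 (0.72, 0.76 and 0.89) and their footprint points left of it (-0.97, -0.54 and -0.34).

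The other genes of the pathway, 110 in 5 lists, had an mRNA median closer to that of all genes. Of 101 tested, 0 passed edgeR's or DESeq2's test, with 2 higher and 2 lower at an unadjusted p under 0.05, a median log2 change of 0.10 and list medians that ran from -0.04 for regulators of NRF2 to 0.15 for haem, iron and superoxide genes. In footprints 14 of 102 were at least 1.5-fold higher in sgDAMP and 8 lower, with a median of -0.02. Both shares are smaller than the 19% and 15.7% of all genes. They are not matched for footprint counts, and ratios on few counts scatter more. Thioredoxin-related genes had a median of 0.30, with 4 of 19 higher, near the share over all genes, and 0 lower. SESN1, a sestrin and known p53 target, had 142 footprints in sgDAMP and 26 in sgControl (log2 ratio 2.40, interval 1.79 to 3.06). TXNRD3, a thioredoxin reductase, had 14 in sgDAMP and 1 in sgControl (3.75, 1.04 to 9.16).

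Glutathione genes split, with 3 of 33 higher and 4 lower and a median of -0.13. GPX1, a selenoprotein that reduces peroxides with glutathione, had 170 footprints in sgDAMP and 45 in sgControl (log2 ratio 1.87, interval 1.38 to 2.37), against an mRNA log2 change of -0.24 (SE 0.29, adjusted p = 0.87). CHAC1, which degrades glutathione, had 141 footprints in sgDAMP and 246 in sgControl (-0.85, -1.16 to -0.55), and GSTA4, a glutathione transferase, 19 in sgDAMP and 36 in sgControl (-0.97, -1.86 to -0.13). Among regulators, 2 of 13 were higher and 2 lower, and MAFG, a small MAF partner of NRF2, had 31 in sgDAMP and 66 in sgControl (-1.14, -1.81 to -0.51). NADPH and detoxification genes had 4 of 27 higher and 2 lower with a median of -0.07, and haem, iron and superoxide genes 1 of 10 higher and 0 lower with a median of 0.07. For footprints relative to mRNA, 0 of 103 passed edgeR's test (4 higher and 0 lower at an unadjusted p under 0.05), with a median of -0.04 and list medians from -0.23 (NADPH and detoxification) to 0.50 (thioredoxin).

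**Figure D4:**
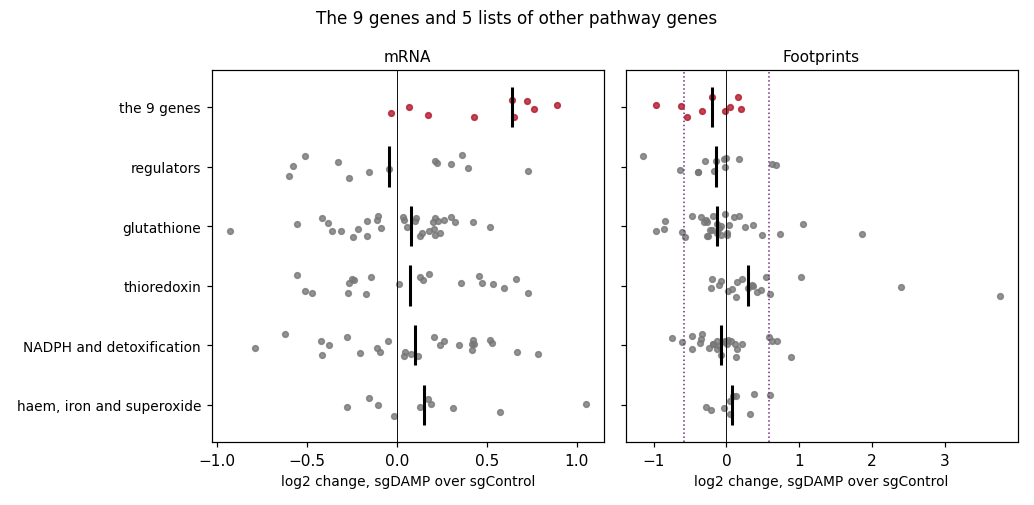
Log2 change in sgDAMP over sgControl of the 9 genes (red) and of the other pathway genes by list (grey), in mRNA and in footprints; each point is a gene, vertical positions within a row are arbitrary, black bars are medians and dotted lines in the footprint panel mark 1.5-fold. The 9 genes have a median of 0.64 in mRNA and -0.20 in footprints, and the list medians of the others lie between -0.04 and 0.15 in mRNA.

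The levels of footprints over mRNA within a condition placed TXNRD1 high and KEAP1 low in both sgDAMP and sgControl. These are values with no test, on a scale where the median gene is 0 (TMM over both assays, genes with at least 10 counts in each). TXNRD1 lay at 2.59 in sgDAMP, the 83.3 percentile of 12269 genes, and at 3.87 in sgControl, the 90.4 percentile of 11903. It held 0.335% of all protein-coding footprints in sgDAMP and 0.401% in sgControl, against 0.0537% of protein-coding mRNA counts in sgDAMP and 0.0288% in sgControl. KEAP1 lay at -2.92 in sgDAMP and -3.20 in sgControl, at the 13.3 percentile in sgDAMP and the 14 percentile in sgControl. SLC7A11 (1.62 in sgDAMP, 1.61 in sgControl) and NFE2L2 (1.2 in sgDAMP, 2.03 in sgControl) were above the median gene in both. So was GCLC (0.63 in sgDAMP, 1.26 in sgControl). With mean mRNA, TXN was below the median gene in both (-1.07 in sgDAMP, -0.73 in sgControl), but not with every mRNA library. Before the median gene was set to 0, TXN ran from -1.67 to 0.215 in sgDAMP (median gene -0.0283). In sgControl TXN ran from -1.3 to 0.0609 (median gene 0.0068). GCLM was at -0.59 in sgDAMP and 0.60 in sgControl, SRXN1 at -0.27 in sgDAMP and 0.38 in sgControl, and HMOX1 at -1.49 in sgDAMP and 0.16 in sgControl. In sgControl, SRXN1 and HMOX1 were not above the median gene with every mRNA library. Before the median gene was set to 0, they ran there from -0.169 to 0.801 (SRXN1) and from -0.0671 to 0.568 (HMOX1).

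**Figure D5:**
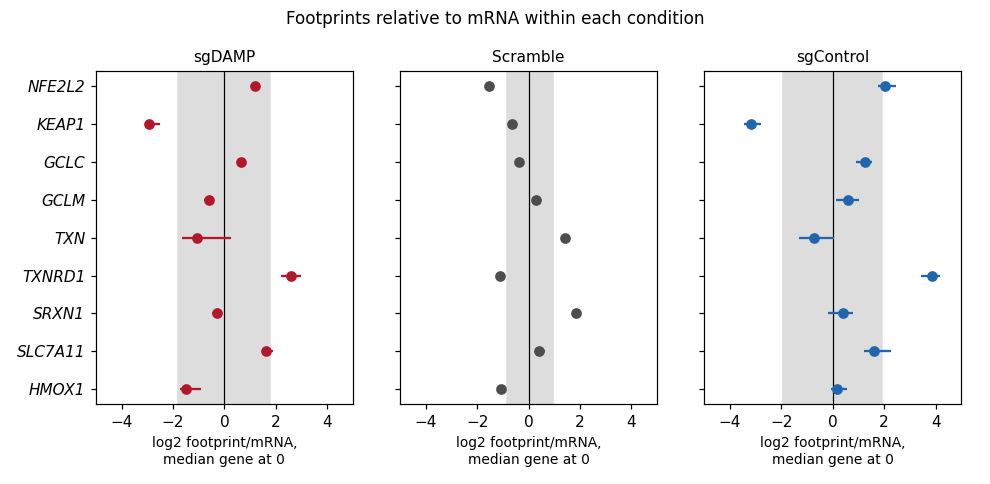
Log2 ratio of summed footprints to mRNA, with the median gene of each condition at 0, for the 9 genes in sgDAMP, Scramble and sgControl cells; points use the mean mRNA level, horizontal lines span the 3 mRNA libraries and grey bands hold the middle 50% of genes. TXNRD1 lies at 2.59 in sgDAMP and 3.87 in sgControl but at -1.11 in Scramble, and KEAP1 lies below 0 in each condition. The median gene is taken over 12269 genes in sgDAMP, 6481 in Scramble and 11903 in sgControl.

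Scramble cells, from the experiment that sought translated lncRNAs, had few footprints on these genes. Summed over 3 libraries there were 1070 on TXN, 244 on TXNRD1, 230 on SLC7A11, 103 on GCLM, 58 on HMOX1, 49 on GCLC, 33 on KEAP1, 18 on NFE2L2 and 12 on SRXN1. Against mRNA (edgeR's quasi-likelihood test, 3 against 3 libraries), footprints were higher for 4 of the 9 genes, where 17.1% of 14432 genes were called higher, and lower for 3, where 27.4% were called lower. TXN was higher by 1.53 on the log2 scale (SE 0.26, adjusted p = 2.99e-05), with 608, 310 and 152 footprints beside 7989, 9547 and 7934 mRNA counts, and SRXN1 by 2.04 (SE 0.56, adjusted p = 0.00429), on 7, 4 and 1 footprints beside 69, 72 and 68 mRNA counts. SLC7A11 was higher by 0.59 (SE 0.21, adjusted p = 0.0252) and GCLM by 0.50 (SE 0.20, adjusted p = 0.0422). NFE2L2 was lower, at -1.36 (SE 0.33, adjusted p = 0.00173), with 10, 6 and 2 footprints beside 1073, 1309 and 963 mRNA counts. TXNRD1 was lower at -0.97 (SE 0.25, adjusted p = 0.00295) and HMOX1 at -0.88 (SE 0.23, adjusted p = 0.0035). KEAP1 (-0.48, SE 0.30, adjusted p = 0.188) and GCLC (-0.21, SE 0.26, adjusted p = 0.514) did not pass. Among all genes tested, TXNRD1 was at the 44.1 and HMOX1 at the 45.8 percentile, both near the median gene. KEAP1 was at the 54.4 and GCLC at the 60.7 percentile.

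These directions are relative to the scaling: the median gene lies at -0.68, total-count scaling moves it by -2.84, lowers the share of higher calls from 38.4% to 3.56% and turns all 4 higher genes negative. The GCLM call was lost without any 1 of the footprint libraries (adjusted p = 0.142, 0.128 and 0.224), that of SLC7A11 without footprint replicate 1 (0.149) or 2 (0.0551) or mRNA replicate 3 (0.0676), and that of SRXN1 without footprint replicate 1 (0.15); SRXN1 fell under the count filter without any 1 mRNA library. With no filter GCLM (0.304) and SLC7A11 (0.166) were not called. Other pathway genes had 43 of 100 higher and 15 lower, with a median of 0.47. Over all genes tested, 17.1% were called higher and 27.4% lower. The lists were not matched to all genes by counts. GGCT, of glutathione breakdown, stood at 4.84 (SE 0.32), the transferase MGST3 at 4.59 (SE 0.27) and TXNDC12, a thioredoxin-domain protein, at 3.28 (SE 0.42). The small MAF genes MAFK (-5.34, SE 0.41) and MAFF (-4.85, SE 0.80) and the ferritin gene FTH1 (-4.98, SE 0.41) were lower. Regulators had 1 of 13 higher and 5 lower, with a median of -1.44. Glutathione genes had 14 of 31 higher and 3 lower (median 0.51), thioredoxin genes 9 of 19 and 2 (0.54), NADPH and detoxification genes 14 of 27 and 3 (0.76), and haem, iron and superoxide genes 5 of 10 and 2 (0.66).

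TXNRD1 held 0.0466% of protein-coding footprints and 0.105% of protein-coding mRNA counts in Scramble cells. Its ratio of footprints to mRNA there, -1.11 with the median gene at 0, was at the 17.9 percentile of 6481 genes. That set, with at least 10 counts in each assay, is smaller than in sgDAMP and sgControl, so percentiles are not like for like. Over the 14432 genes of the test above, the TXNRD1 change of -0.97 was at the 44.1 percentile. NFE2L2 likewise lay at -1.55 in Scramble, the 9.66 percentile of the 6481 genes, and at -1.36 in the test, the 37.1 percentile. These differences between conditions were not tested, and the experiment and the condition cannot be told apart. The span of TXNRD1 overlaps those of EID3, TXNRD1-AS1 and RPL18AP3, and counts do not show where along a gene the reads lie. GCLC, SLC7A11 and SRXN1 overlap GCLC-AS1, SLC7A11-AS1 and LOC107985423, and NFE2L2 overlaps MIR3128. No source used here gives the strand setting, so these genes and their neighbours could share reads.

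The 2 control groups differed in mRNA for all 9 genes, 5 higher and 4 lower in Scramble, in a comparison in which edgeR called 46.1% of 16360 genes higher and 33.4% lower. NFE2L2 had 64.2, 72.6 and 63.8 CPM in Scramble, against 5.24, 7.51 and 8.46 CPM in sgControl, 9.5-fold higher (log2 change 3.25, SE 0.23, adjusted p = 2.14e-06). SLC7A11 had 244, 236 and 191 CPM in Scramble, against 17.1, 27.9 and 34.4 CPM in sgControl (3.08, SE 0.27, adjusted p = 6.12e-06). Levels of the glutathione synthesis genes were also higher in Scramble, with GCLC at 2.44 (SE 0.21) and GCLM at 1.2 (SE 0.24), as was TXNRD1 at 0.99 (SE 0.22). HMOX1 ran the other way, with 152, 140 and 170 CPM in Scramble against 1711, 1532 and 1083 CPM in sgControl (-3.21, SE 0.20, adjusted p = 1.32e-06). KEAP1 (-1.34, SE 0.20), SRXN1 (-0.98, SE 0.29, adjusted p = 0.0107) and TXN (-0.80, SE 0.30, adjusted p = 0.0307) were lower too.

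The TXN call was lost without any 1 Scramble library (adjusted p = 0.0967, 0.0754 and 0.0803) and its change became 0.0037 with total counts, while SRXN1 lost its call without Scramble replicate 2 (0.05) and with total counts (0.656). TXN also moved to -0.43 without replicate 3 of sgControl, and SRXN1 to -0.64 without replicate 1. Total-count scaling moves the median gene by 0.83 and the share of higher calls from 58% to 75.5%. Among other pathway genes, regulators were mostly higher in Scramble (10 of 14, 3 lower), with the NRF2 competitor BACH1 at 3.89 (SE 0.38) and CUL3, of the ligase that KEAP1 recruits, at 2.79 (SE 0.23). The carbonyl reductase CBR3 was higher by 3.21 (SE 0.41). Over all genes tested in this comparison, 46.1% were called higher and 33.4% lower. The remaining lists held more lower than higher calls, with lower calls for 20 of 32 glutathione genes (4 higher), 13 of 19 thioredoxin genes (3 higher), 20 of 27 NADPH and detoxification genes (4 higher) and 5 of 10 haem, iron and superoxide genes (3 higher). The aldehyde dehydrogenase ALDH3A1 (-4.43, SE 0.26), the peroxidase GPX2 (-3.83, SE 0.24) and the aldo-keto reductase AKR1B1 (-3.47, SE 0.18) were lowest. Reads that fell on no gene made up 54.04% to 54.35% of Scramble mRNA libraries and 22.24% to 23.92% of sgControl mRNA libraries. The sum of the line's own markers, which rests mostly on KRT7, KRT8 and KRT18, was lower in Scramble, as given above. It does not show the direction of EGFR, MET or CDH1. The part of the unassigned reads and of the marker sum in these differences was not tested. The construct, the experiment and the processing cannot be told apart, and bulk libraries cannot separate fewer cells of a kind from less RNA per cell.

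Across the 3 conditions, the mean mRNA of NFE2L2, GCLC, GCLM, TXNRD1 and SLC7A11 was highest in Scramble, then sgDAMP, and lowest in sgControl. SLC7A11, for instance, averaged 29.5 ± 3.79 CPM in sgDAMP, 224 ± 28.4 in Scramble and 26.5 ± 8.75 in sgControl (SD, n = 3 each). HMOX1 had the reverse place for Scramble, with 2340 ± 698 CPM in sgDAMP, 154 ± 15.5 in Scramble and 1440 ± 324 in sgControl (SD, n = 3 each). The neighbours sgDAMP and sgControl were not separated by the test for any of the 9 genes, and sgDAMP against Scramble was not tested. The protein-coding genes with the most similar mRNA profile over the 9 libraries, by the root mean square difference of centred log2(CPM + 1), were OPA1 for NFE2L2 (0.105), CUL2 for GCLC (0.126), TXNRD1 for GCLM (0.151), SDE2 for TXNRD1 (0.121), PHLDB2 for SLC7A11 (0.0935), RAB40C for KEAP1 (0.0597), RPS24 for TXN (0.106) and C11orf86 for HMOX1 (0.291), out of 8281 genes each. GCLM was thus paired with another of the 9, while TXNRD1 was not paired with GCLM. For scale, the median difference to all these genes ran from 0.695 (KEAP1) to 1.63 (HMOX1). The profiles include the Scramble libraries, and what paired genes have in common was not tested. SRXN1 was too low to enter.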

How the data were processed

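Poly(A) mRNA and ribosome footprints of NCI-H1975 were sequenced in 18 libraries, 3 in each of 6 groups. The deposited values are raw read counts per gene, and the submitters' processing notes name Trimmomatic 0.30, HISAT2 2.1.0, SAMtools 1.10, HTSeq 0.11.2, edgeR and GRCh38. The sources used here give no annotation release, strand setting or handling of multiply aligned reads. The 5 lines of reads given to no gene (22.24% to 95.82% of reads) were left out of library sizes. Symbols were found for 61369 of 61487 identifiers, and coordinates come from RefSeq.

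Genes were filtered with filterByExpr (minimum count 10), scaled by TMM and tested with edgeR 4.0.16 in R 4.3.3 (quasi-likelihood F test, two-sided, Benjamini-Hochberg adjusted p under 0.05), with no pairing term. TMM ran within each assay for the interaction and over both assays in Scramble cells. Groups whose libraries agree within sampling noise (mean chi-square per degree of freedom at most 1.2 over the lowest 99% of genes with 30 or more counts) were summed. The main fits and the interval were run on counts simulated under their own assumptions. Such runs cannot show whether those assumptions hold for these libraries. The alternatives named next were not simulated. Alternatives were DESeq2 1.42.0 size factors and Wald test, total-count scaling, no filter, a replicate block, separate or joint libraries and leaving out each library. Counting intervals do not cover duplicate reads. Total-count scaling moved the median gene by 0.14 in the mRNA comparison of sgDAMP with sgControl, and DESeq2 size factors moved it by -0.11 between Scramble and sgControl mRNA.

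The genes, lists and tests were chosen with earlier results of these data known. Named were the 9 genes, DSP-AS1, up to 3 called pathway genes per direction and comparison with the largest change, and the most similar mRNA profile of each gene with a mean of at least 10 CPM.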

Additional observations from a re-analysis of the deposited data

How the results depend on the processing

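Between sgDAMP and sgControl mRNA, 14 genes were called with no filter, 21 with DESeq2's Wald test, 1 with all 9 mRNA libraries in 1 fit and 0 to 6 when each library was left out, against 0 in the main setting; the 6 came without replicate 3 of sgControl. The cause was not tested. Under these alternatives 0 of the 9 genes passed in that comparison. The 4 genes at an unadjusted p under 0.05 became 2 with DESeq2 size factors, 5 with total counts and 1 with a replicate block. KEAP1 turned to 0.12 with total counts and to 0.0051 with all 9 libraries, and leaving out libraries gave -0.23 to 0.14 for KEAP1, -0.13 to 0.43 for SRXN1 and -0.077 to 0.40 for SLC7A11. Past 1.5-fold in footprints were 5592 genes, and 12418 with no filter, which adds genes of few counts. When the footprint libraries count separately, edgeR calls 6957 genes. Footprints relative to mRNA gave 50 calls, 451 with all 12 libraries and 323 with those and a replicate block; SLC7A11 turned to -0.012 with no filter and -0.043 under that block. Leaving out libraries gave -0.24 to 0.23 for SLC7A11 and -0.77 to 0.025 for TXN. In Scramble cells total counts called 13530 genes against 6418 and turned GCLM to -2.36, TXN to -1.24, SRXN1 to -0.81 and SLC7A11 to -2.26. TXN turned to 0.0037 with total counts in Scramble against sgControl mRNA. The count of 4 genes above the median gene in footprints over mRNA in both sgDAMP and sgControl was the same with DESeq2 size factors and total counts. Setting the median gene to 0 takes out most of a change in scaling, so this could hardly differ. The share of all genes above it in both is not given, so the count is not read as a result.

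No pairing of same-numbered libraries was seen where it was checked. Deviations of same-numbered mRNA libraries of sgDAMP and sgControl correlated at 0.452, -0.305 and -0.511, and in Scramble footprints and mRNA at 0.0017, -0.066 and -0.072. Pairing of mRNA with footprint libraries within sgDAMP or sgControl, which the block over all 12 libraries uses, was not checked. The block gave 0 calls in mRNA, 4704 in Scramble cells (where GCLM, SRXN1 and SLC7A11 lost their calls at adjusted p = 0.153, 0.0763 and 0.0792), 12378 in Scramble against sgControl mRNA, where it changed no call of the 9, and 6965 in footprints counted separately. Depth limits SRXN1, NFE2L2 and KEAP1 in Scramble footprints, at 12, 18 and 33 counts.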
